A study of Mus musculus with 6 samples.

Results

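The genes described here are 10 genes of the cell's defence against reactive oxygen: the superoxide dismutases *Sod1*, *Sod2* and *Sod3*, the peroxide-removing enzymes *Cat*, *Gpx1* and *Gpx4*, and the peroxiredoxin and thioredoxin genes *Prdx1*, *Prdx2*, *Prdx5* and *Txn1*. The list was chosen by the CPM of *Sod1*, which were higher in the mutant mice, and all 10 symbols were found among the 25239 genes counted. The genotype comparison thus chose the list, so the values of the 10 genes in it are given as a description, with no test. RNA was sequenced from the hippocampus of 3 male wild-type mice (Ube3a m+/p+, hereafter WT) and 3 male Ube3a m-/p+ mice, all C57BL/6 and between 6 and 8 weeks old. Each mouse gave a library of its own, so far as the labels tell. The Ube3a m-/p+ mouse carries an inactive maternal copy of *Ube3a*, a ubiquitin ligase gene whose paternal copy is silent in most neurons, and it is used as a model of Angelman syndrome. The paternal copy is intact in these mice and is used by glia. Which copy or cells gave the *Ube3a* RNA left in whole tissue of the mutant mice was not tested.

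Superoxide leaks from the respiratory chain and is made by oxidases. Superoxide dismutases turn it into hydrogen peroxide, in the cytosol (*Sod1*, with copper and zinc), the mitochondrial matrix (*Sod2*, with manganese) and the extracellular space (*Sod3*). Catalase in peroxisomes, glutathione peroxidases and peroxiredoxins then remove the peroxide, and thioredoxin returns peroxiredoxins to their reduced state with electrons from NADPH. Neurons use much oxygen and hold much unsaturated lipid, which is why these enzymes are often studied in the brain.

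WT libraries held 7293272 to 8675252 counts on genes and Ube3a m-/p+ libraries 8871052 to 11314409, so every mutant library was the deeper. Of the reads sorted in counting, 39.0% to 41.8% were assigned to genes and 54.1% to 55.0% to no counted feature. The latter class does not mean that the reads lay outside genes. A further 0.297% to 0.383% were set aside as ambiguous between genes. The share that aligned to more than 1 place was 4.15%, 5.61% and 5.77% in WT mice 1, 2 and 3. In mutant mice 1, 2 and 3 it was 4.06%, 3.71% and 3.76%. *Ube3a* itself had 104, 141 and 151 CPM (the normalised read count, that is, counts scaled by the total gene counts of the library) in WT mice 1, 2 and 3 and 96.8, 82.9 and 80.6 CPM in Ube3a m-/p+ mice 1, 2 and 3. All 3 mutant values were below all WT values, at a log2 fold change of -0.58 with an SE (standard error) of 0.12 and an adjusted p = 0.0363 by edgeR's quasi-likelihood test with Benjamini-Hochberg adjustment, and -0.20 (edgeR adjusted p = 0.24) after the correction described next. Exons of *Snhg14*, the antisense transcript, cover 1803 bases of *Ube3a*. If strand was ignored in counting, reads there could not be assigned to either gene alone. Markers of neurons had a summed level of 10561 to 11151 CPM in WT mice and 10508 to 11362 CPM in mutant mice. Genes of high GC content were relatively low in WT mice 2 and 3 and relatively high in mutant mice 2 and 3. Spearman's rho of GC content with each library's departure from the 6-library mean, over 14201 genes that share these libraries, was -0.52 and -0.58 in the former and 0.54 in both of the latter, against 0.05 in WT mouse 1 and 0.06 in mutant mouse 1. For this reason, each fold change is followed where it matters by its value after each library was corrected for GC content and transcript length.

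The stretches of 250 bases before the annotated transcription start of 3 of the genes are shown, because *Sod1* and *Prdx5* had the largest log2 fold changes of the 10, and *Prdx1* was the only other gene with a match to the antioxidant response element. Capitals mark matches, on either strand, to the core of the antioxidant response element bound by NRF2 (TGACNNNGC), the GC box (GGGCGG), the CCAAT box (CCAAT) and the TATA box (TATAAA). Sequences are from RefSeq on GRCm38.p6 and read 5′ to 3′ on the strand of the gene.

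Sod1, chr16:90220512-90220761, plus strand: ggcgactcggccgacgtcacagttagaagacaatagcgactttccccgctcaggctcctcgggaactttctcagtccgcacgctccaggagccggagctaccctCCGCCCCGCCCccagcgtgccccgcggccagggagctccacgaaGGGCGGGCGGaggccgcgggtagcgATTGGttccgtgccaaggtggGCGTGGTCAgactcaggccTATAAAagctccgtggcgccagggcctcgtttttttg

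Prdx5, chr19:6910107-6910356, minus strand: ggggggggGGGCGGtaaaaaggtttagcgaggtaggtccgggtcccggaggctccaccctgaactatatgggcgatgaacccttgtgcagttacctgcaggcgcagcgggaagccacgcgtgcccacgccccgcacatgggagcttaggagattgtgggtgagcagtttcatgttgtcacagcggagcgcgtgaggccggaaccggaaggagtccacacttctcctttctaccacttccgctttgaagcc

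Prdx1, chr4:116685349-116685598, plus strand: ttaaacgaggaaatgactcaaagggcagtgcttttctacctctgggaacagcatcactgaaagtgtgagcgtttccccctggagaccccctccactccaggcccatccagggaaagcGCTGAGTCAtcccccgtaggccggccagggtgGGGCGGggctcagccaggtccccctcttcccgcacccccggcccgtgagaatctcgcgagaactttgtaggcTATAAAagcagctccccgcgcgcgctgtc

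The reference table held 12 such windows for 9 of the 10 genes, 4 of them for *Gpx4*. The core of the antioxidant response element was in 2 of the 12 windows, those of *Sod1* (GCGTGGTCA on the opposite strand, 56 to 48 bases before the start) and *Prdx1* (GCTGAGTCA on the opposite strand, 133 to 125 bases before the start). It was in 10.2% of all 32851 windows. Neither match overlapped another motif, whereas GC boxes overlapped each other in *Sod1*. The GC box was in 9 of the 12 windows and in 32.7% of all, the CCAAT box in 6 and 33.8%, and the TATA box in 3 and 12.4%. The *Gpx4* windows that start at 80053315 and 80053409 overlap and share GC and CCAAT boxes. These counts are thus of windows that are not independent, and not of genes. *Sod1* and *Sod2* are both on the study's list of genes that respond to retinoic acid, and the direct repeat of AGGTCA with a spacer of 5 bases, a form of the retinoic acid response element, was in none of the 12 windows and in 3 of all 32851.

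*Sod1*, the cytosolic copper-zinc enzyme (chromosome 16 of GRCm38, 90220754 to 90226329), showed the largest difference of the 10 genes. It had 98.4, 80.8 and 76.6 CPM in WT mice 1, 2 and 3 and 108, 131 and 125 CPM in Ube3a m-/p+ mice 1, 2 and 3. The lowest mutant mouse lay above the highest WT mouse, and in both genotypes mouse 1 was the one nearest to the other genotype. The means were 85.3 ± 11.5 and 121 ± 11.8 CPM (SD, n = 3 each), which is 42.2% more in the mutant mice and a log2 fold change of 0.53 (SE 0.11). Leaving out single mice gave values between 0.45 and 0.64. The correction for GC content and length moved it according to the transcript taken for the gene. It was 0.58 with the longest annotated transcript, which retains an intron and has 3970 bases with a GC content of 47.6%. With the protein-coding transcript of 641 bases with a GC content of 53.2% it was 0.30 (SE 0.08). The gene was no longer called there, where 0.634% of all genes were.

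*Sod2*, the manganese enzyme of mitochondria (chromosome 17, 13006846 to 13040063), had 130, 120 and 126 CPM in WT mice 1, 2 and 3 and 114, 126 and 115 CPM in mutant mice 1, 2 and 3. Mutant mouse 2 lay among the WT mice and mutant mice 1 and 3 lay below them. The log2 fold change was -0.07 (SE 0.08), smaller than its error, and once corrected it took the other sign, at 0.16. *Sod3*, the secreted enzyme that binds to the surface of vessels and matrix (chromosome 5, 52363791 to 52371418), was the least counted of the 10 genes, with 78 to 141 counts per library. It had 11.9, 9.57 and 10.7 CPM in WT mice and 11.3, 12.5 and 10.3 CPM in mutant mice, and the groups overlapped. Its log2 fold change of 0.10 had a standard error of 0.16, and the counting error of its lowest library alone was 11.3%. For the other 9 genes the counting error of the lowest library was 3.04% to 6.88%.

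**Figure D1:**
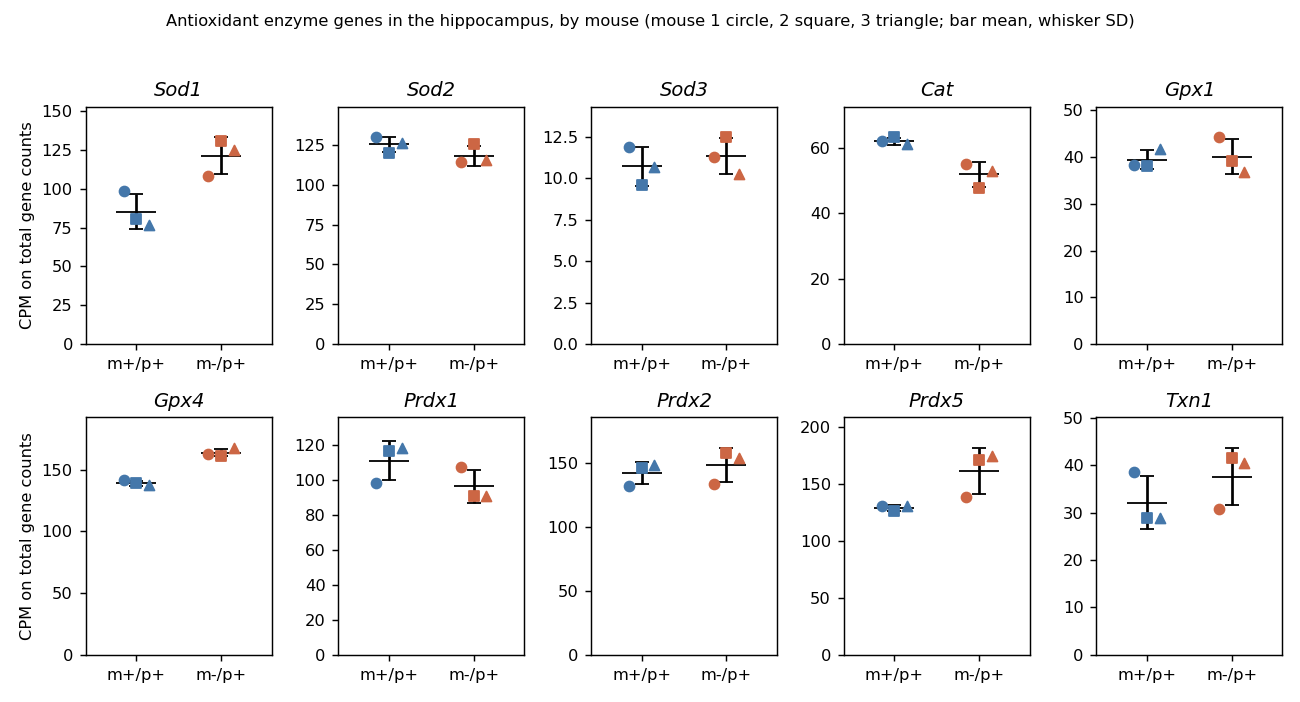
Level of each of the 10 genes in CPM on the total gene counts (vertical axis, from 0) in 3 WT (m+/p+) and 3 Ube3a m-/p+ mice, with mouse 1 as a circle, mouse 2 as a square and mouse 3 as a triangle, and the mean and SD in black. The groups stand apart for *Sod1*, *Gpx4* and *Prdx5*, which are higher in the mutant mice, and for *Cat*, which is lower; the other 6 overlap.

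Catalase, encoded by *Cat* (chromosome 2, 103453849 to 103485160), breaks down hydrogen peroxide in peroxisomes. It had 62.1, 63.3 and 61.2 CPM in WT mice 1, 2 and 3 and 55.0, 47.8 and 53.1 CPM in mutant mice 1, 2 and 3. Every mutant mouse lay below every WT mouse, and the WT mice differed among themselves by little. The means were 62.2 ± 1.07 and 52.0 ± 3.73 CPM (SD, n = 3 each), a log2 fold change of -0.24 (SE 0.09). It was -0.23 after the correction, and between -0.27 and -0.17 with each mouse left out. *Cat* was thus the gene of the 10 with a lower level in all 3 mutant mice, and its value hardly moved with GC content and length.

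Glutathione peroxidases use glutathione to reduce peroxides. *Gpx4* acts on lipid peroxides within membranes and holds back ferroptosis, a form of cell death (chromosome 10, 80047166 to 80056439). It had 141, 139 and 137 CPM in WT mice 1, 2 and 3 and 163, 161 and 167 CPM in mutant mice 1, 2 and 3. The groups stood well apart and each was tight, with means of 139 ± 2.07 CPM (SD, n = 3) and 164 ± 2.98 CPM (SD, n = 3). The log2 fold change was 0.25 (SE 0.08). This direction did not hold after the correction for GC content and length, which gave -0.09 (SE 0.08). The transcript of *Gpx4* had the highest GC content of the 10, at 60.2%, against a median of 49.9% over the genes tested. *Gpx1*, the general cytosolic glutathione peroxidase (chromosome 9, 108338903 to 108340343), had 38.3, 38.2 and 41.8 CPM in WT mice and 44.2, 39.2 and 36.8 CPM in mutant mice. Mutant mice lay on both sides of the WT mice, with a log2 fold change of 0.04 (SE 0.11) that was -0.23 after the correction and -0.02 without mutant mouse 1.

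Peroxiredoxins reduce hydrogen peroxide with a reactive cysteine. *Prdx5*, which is found in mitochondria, peroxisomes and the cytosol (chromosome 19, 6906697 to 6910106), had 131, 126 and 130 CPM in WT mice 1, 2 and 3 and 138, 171 and 174 CPM in mutant mice 1, 2 and 3. All mutant mice lay above all WT mice, but mutant mouse 1 lay much nearer to the WT mice than to the other mutant mice. The means were 129 ± 2.51 and 161 ± 19.8 CPM (SD, n = 3 each), and the log2 fold change was 0.34 (SE 0.10). It was 0.13 after the correction with the longest transcript and 0.05 with the longest protein-coding transcript. Exons of *Trmt112* on the opposite strand cover 409 bases of *Prdx5*, or 19.1% of its exons, and the sources used here do not say whether strands were told apart in counting. *Trmt112* itself went from 27.9 ± 4.42 to 29.7 ± 2.35 CPM (SD, n = 3 each).

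*Prdx2*, a cytosolic peroxiredoxin that is abundant in neurons and red blood cells (chromosome 8, 84969587 to 84974834), had 132, 146 and 148 CPM in WT mice and 134, 158 and 154 CPM in mutant mice. In both genotypes mouse 1 had the lowest value, and the groups overlapped. The log2 fold change was 0.08 (SE 0.09) and -0.0040 after the correction. Exons of *Junb* and *Rnaseh2a* on the opposite strand cover 173 and 177 bases of *Prdx2*. *Junb*, an early response gene, itself went from 37.8 ± 10.9 to 50.9 ± 5.55 CPM (SD, n = 3 each). *Prdx1*, a further cytosolic peroxiredoxin and a target of NRF2 (chromosome 4, 116685544 to 116700822), had 98.5, 117 and 118 CPM in WT mice and 107, 91.0 and 90.9 CPM in mutant mice. Mouse 1 was lowest in WT and highest in the mutant, and the log2 fold change of -0.19 (SE 0.10) was -0.02 after the correction. *Txn1*, the cytosolic thioredoxin (chromosome 4, 57943373 to 57956411), had 38.5, 28.8 and 28.9 CPM in WT mice and 30.8, 41.5 and 40.5 CPM in mutant mice. Mouse 1 was again the exception in both genotypes, and the log2 fold change of 0.25 (SE 0.14) was 0.41 without WT mouse 1. Pseudogenes named after *Gpx4*, *Prdx1*, *Prdx2* and *Txn1* exist in the annotation and are not among the genes counted here, so the part that reads shared with them had in these values was not tested.

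**Figure D2:**
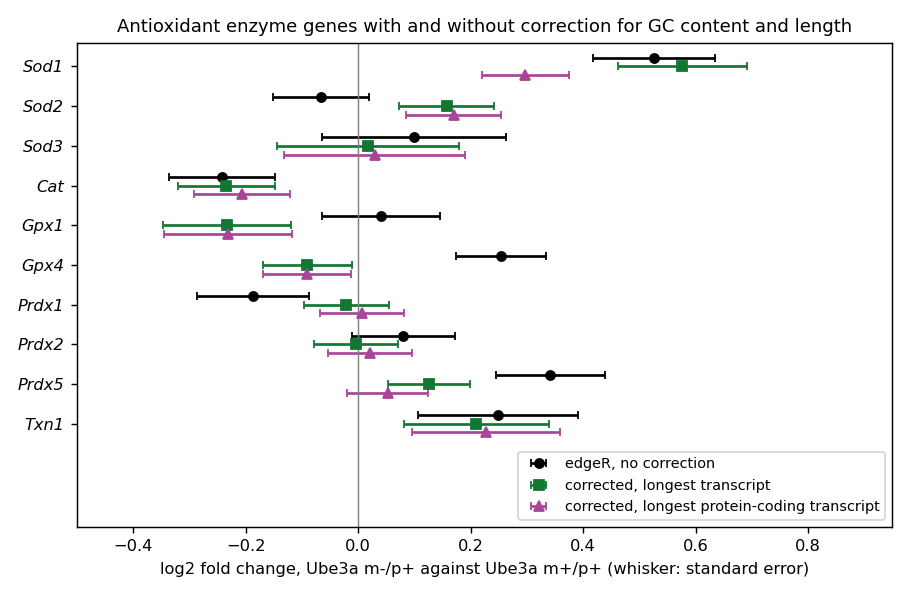
Log2 fold change of the 10 genes between Ube3a m-/p+ and WT mice (horizontal axis), with its standard error, in the fit without correction (circles) and after each library was corrected for GC content and length, by the longest transcript (squares) or the longest protein-coding transcript (triangles). *Cat* and *Txn1* keep nearly the same value in the 3 fits, *Gpx4* goes from 0.25 to -0.09, and *Sod1* depends on the transcript (0.53, 0.58 and 0.30).

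Of the 10 genes, 7 had a log2 fold change above 0 and 3 below 0, with a median of 0.09, against 0.0025 over the 14445 genes tested, of which 50.3% were above 0. After the correction the median of the 10 was 0.0069, against -0.01 over all genes. A gene was called where edgeR gave an adjusted p under 0.05 together with a change of over 1.2-fold. Calls of the 10 genes reuse the values that chose the list, so they are counts beside the background and no test. *Sod1* was the 1 called of the 10, and of all genes tested 2.01% were called (1.02% higher and 0.99% lower). After the correction by the longest transcript it was again only *Sod1*, with 0.648% of all genes called. With DESeq2, *Sod1* and *Prdx5* were called, where 6.58% of all genes were. The groups did not overlap in 4 of the 10, 3 higher and 1 lower in the mutant mice, and in 25.0% of all genes tested (10.8% higher and 14.2% lower). Since the comparison chose the list, nothing is read from these shares. The number called among the 10 went from 0 to 4 with single mice left out. It was 4 without WT mouse 1 (*Sod1*, *Gpx4*, *Prdx5* and *Txn1*, with 17.6% of all genes called) and 2 without mutant mouse 1 (*Sod1* and *Prdx5*, with 12.5% of all genes called). It was 0 without WT mouse 2 or 3, without mutant mouse 2 or 3, or with the replicate number as a block. In those settings 0.00% to 0.0137% of all genes were called, so the 0 is not particular to the 10 genes.

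Levels can be compared between genes only per length. By CPM per kilobase of all exons merged, the order in WT mice was *Gpx4* (80.7 ± 1.2, SD, n = 3), *Prdx5* (60.3 ± 1.17), *Prdx2* (46.7 ± 2.85), *Prdx1* (36.5 ± 3.60), *Txn1* (30.5 ± 5.30), *Gpx1* (27.4 ± 1.44), *Cat* (23.8 ± 0.41), *Sod1* (21.5 ± 2.90), *Sod2* (12.5 ± 0.48) and *Sod3* (2.87 ± 0.31). The ranges over the 3 mice overlapped between *Prdx1* and *Txn1*, between *Txn1* and *Gpx1*, and between *Cat* and *Sod1*, and not between the other neighbours. The place of *Sod1* rested on its intron-retaining transcript. Per kilobase of the longest protein-coding transcript, *Sod1* had 133 ± 18.0 CPM (SD, n = 3) in WT mice, second to *Gpx4* with 140 ± 2.08 CPM (SD, n = 3) and overlapping with it. In mutant mice it was then the first, with 189 ± 18.4 CPM (SD, n = 3) against 165 ± 3.00 CPM (SD, n = 3) for *Gpx4*. *Sod3* was the lowest of the 10 under each of the 3 lengths.

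**Figure D3:**
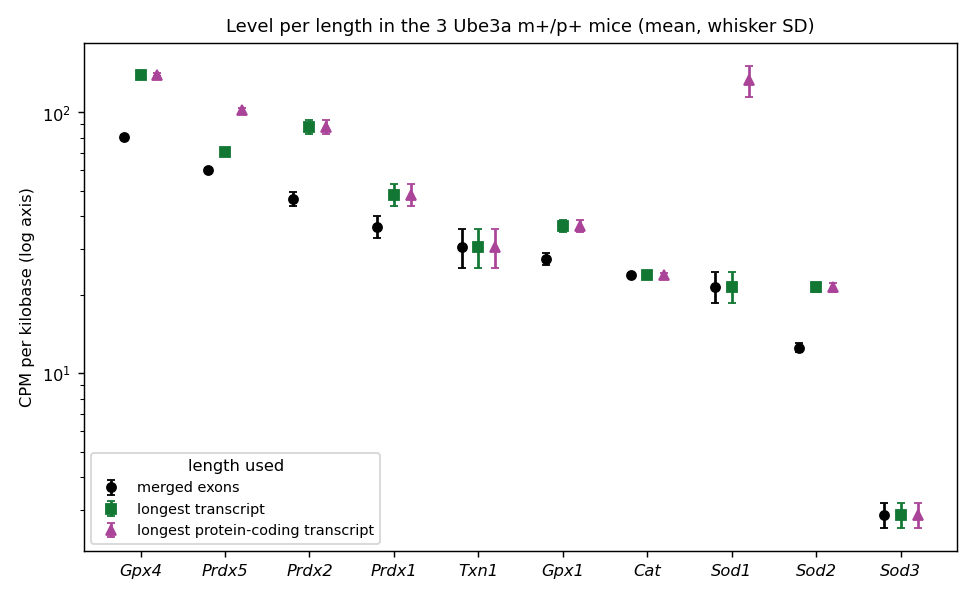
Mean level per kilobase in the 3 WT mice with its SD (vertical log axis, CPM per kilobase) for 3 ways of taking a gene's length, with genes in the order given by merged exons. *Sod1* goes from 21.5 to 133 when only its protein-coding transcript is counted as its length, while *Sod3* stays lowest at 2.87.

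The genes whose pattern over the 6 libraries lay nearest to that of *Sod1* were *Stx1a*, *Rtl8c*, *Sstr3*, *Slc22a17* and *Fam171a2*. The measure was the root-mean-square difference of centred log2(CPM + 1), among 8229 genes with a mean of at least 20 CPM. It was between 0.035 for *Stx1a* and 0.04 for *Fam171a2*. These genes were picked for nearness to *Sod1*, so a higher level in the mutant mice follows from the choice and is no finding. *Stx1a*, for instance, had 65.0 ± 10.05 CPM in WT and 92.4 ± 6.20 CPM in mutant mice (SD, n = 3 each). The values of these genes after the correction for GC content and length are not given. The part of GC content and length in the shared pattern was not tested.

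Genes that supply, recycle or oppose these enzymes were taken from 9 lists with 147 genes, none of them among the 10. Of these, 130 passed the filter on low counts and were tested. The test called 3 of them higher and 1 lower in the Ube3a m-/p+ mice, which is 3.08% of the 130, beside 2.01% of all genes tested. The median log2 fold change of the 130 was 0.05, with 75 above 0. An unadjusted p below 0.05 (edgeR) was found for 25 of the 130. That is a smaller share than the 24.6% of all genes tested (3560 of 14445). Counts at this threshold given for single lists below are to be read beside that 24.6%. The groups did not overlap in 30 of the 130 (23.1%), near the share over all genes. The 4 called genes were *Glrx5*, *Tkt*, *Pex16* and *Selenop*. All 4 calls were lost with the replicate block and without WT mouse 2 or 3 or mutant mouse 2 or 3. In those settings 0 to 2 of all genes tested were called, so the loss was not particular to these 4.

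*Glrx5*, a mitochondrial glutaredoxin that takes part in making iron-sulphur clusters (chromosome 12, 105032688 to 105042906), rose most of the 4. It had 25.1, 24.4 and 22.2 CPM in WT mice 1, 2 and 3 and 30.2, 39.4 and 42.3 CPM in mutant mice 1, 2 and 3. The groups did not overlap, and mutant mouse 1 was the lowest of the mutant mice. The log2 fold change was 0.66 (SE 0.13, edgeR adjusted p = 0.0362), and 0.57 after the correction for GC content and length (edgeR adjusted p = 0.0162).

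*Tkt*, the transketolase of the pentose phosphate pathway, the route that makes NADPH (chromosome 14, 30548359 to 30574720), had 97.9, 90.5 and 92.3 CPM in WT mice and 118, 118 and 121 CPM in mutant mice. Both groups were tight and stood apart, with a log2 fold change of 0.36 (SE 0.08, edgeR adjusted p = 0.0408). It was 0.25 after the correction (edgeR adjusted p = 0.0834), where it was no longer called. *Pex16*, a membrane protein that peroxisomes need to form (chromosome 2, 92374676 to 92381217), had 17.2, 14.1 and 17.1 CPM in WT mice and 23.3, 22.8 and 22.6 CPM in mutant mice. The mutant mice were all higher, with a log2 fold change of 0.53 (SE 0.13, edgeR adjusted p = 0.0483), and 0.21 after the correction (edgeR adjusted p = 0.477). Its call was also lost when libraries were scaled by their size alone, and exons of *Large2* on the opposite strand cover 127 of its bases.

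*Selenop* encodes a secreted protein that carries selenium, the element that glutathione peroxidases and thioredoxin reductases need (chromosome 15, 3268547 to 3280508). It fell from 191, 223 and 236 CPM in WT mice to 169, 158 and 144 CPM in mutant mice, without overlap. The log2 fold change was -0.45 (SE 0.09, edgeR adjusted p = 0.0362), and -0.33 after the correction (edgeR adjusted p = 0.023). Exons of *Ccdc152* on the opposite strand cover 439 bases, or 15.4% of its exons. In bulk tissue, fewer cells of a type and less RNA per cell cannot be told apart. The summed level of the 7 microglia markers was 406 to 439 CPM in WT mice and 373 to 393 CPM in mutant mice, with none of 7 called. That of the 6 markers of mural cells was 192 to 209 and 146 to 172 CPM, with 1 of 6 called, and that of the 6 endothelial markers was 252 to 276 and 228 to 264 CPM, with none of 6 called. The markers did not all go 1 way. A log2 fold change above 0 was found for 3 of the 7 microglia, 2 of the 6 mural and 2 of the 6 endothelial markers. The oligodendrocyte sum given further below was also lower without overlap, and the astrocyte sum overlapped. No marker of the microglia, mural and endothelial lists was at 0 in any library, and the part of any of these cells in the fall of *Selenop* was not tested.

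**Figure D4:**
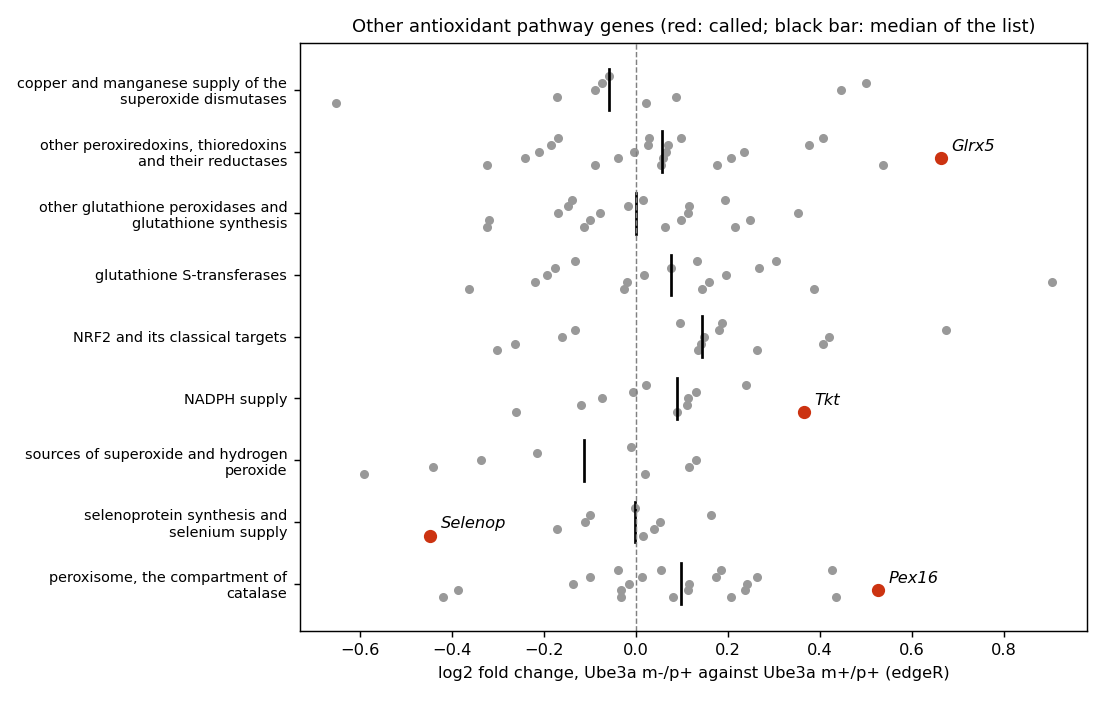
Log2 fold change between Ube3a m-/p+ and WT mice (horizontal axis, edgeR) of the 130 tested genes in 9 antioxidant lists, 1 point per gene, with called genes in red and the median of each list as a black bar. *Glrx5*, *Tkt* and *Pex16* lie to the right and *Selenop* to the left, and the medians lie between -0.11 and 0.14.

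In the list of the other peroxiredoxins, thioredoxins and their reductases, *Glrx5* was the only one of 22 tested genes that was called, with a median of 0.06. The mitochondrial *Prdx3* had a log2 fold change of -0.21, *Prdx4* of the endoplasmic reticulum 0.23 and *Prdx6*, which also acts on phospholipids, -0.09. The reductases *Txnrd1* (cytosol) and *Txnrd2* (mitochondria) had 0.18 and 0.54, and the mitochondrial thioredoxin *Txn2* had 0.05. *Srxn1*, which repairs overoxidised peroxiredoxins, had 0.03, and *Txnip*, which binds and restrains thioredoxin, had -0.32. The adjusted p of these 8 genes lay between 0.105 and 0.895 (edgeR), and the values of *Txn2* and *Srxn1* took the other sign after the correction.

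Of the 9 genes that supply copper or manganese to the dismutases none was called, with 3 at an unadjusted p below 0.05 (edgeR) and none by DESeq2. *Ccs*, the chaperone that loads copper into the *Sod1* protein, had 12.01, 10.4 and 6.99 CPM in WT mice and 11.05, 17.3 and 12.7 CPM in mutant mice. These values overlapped, with a log2 fold change of 0.50 (SE 0.21, edgeR adjusted p = 0.161). It was 0.23 after the correction (edgeR adjusted p = 0.587), 0.31 without WT mouse 3 and 0.30 without mutant mouse 2. The copper pump gene *Atp7a* had the largest value of the list, -0.65 (SE 0.27, edgeR adjusted p = 0.166). That value rested on WT mouse 3, with 22.6 CPM against 10.5 and 12.1 CPM in WT mice 1 and 2, and without it the log2 fold change was -0.26, smaller in size than that of *Ccs* in the same setting.

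None of the 18 tested genes of glutathione synthesis and the other glutathione peroxidases was called, with 2 at an unadjusted p below 0.05 (edgeR) and 1, *Hagh*, called by DESeq2. *Gclc* and *Gclm*, the subunits of the enzyme that makes the first bond of glutathione, had log2 fold changes of -0.11 and -0.15. *Gss*, the enzyme of the second step, had 0.02, *Gsr*, which reduces spent glutathione, had 0.12, and *Slc7a11*, which imports cystine, had -0.02. The signs of *Gclm* and *Slc7a11* turned with the correction, and that of *Gss* with its protein-coding form. *Hagh*, a hydrolase of the glyoxalase system, had the largest value of the list, 0.35 (SE 0.10, edgeR adjusted p = 0.0609), without overlap between the groups, and 0.15 after the correction (edgeR adjusted p = 0.431). Of 17 tested glutathione S-transferases none was called, with 1 at an unadjusted p below 0.05 (edgeR) and none by DESeq2, and *Gstm6* had the largest value among those above 5 CPM, 0.39.

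NRF2, encoded by *Nfe2l2*, switches on many antioxidant genes, and *Keap1* holds it back. None of the 14 tested genes of this list was called, with a median of 0.14 that was 0.03 after the correction, 4 at an unadjusted p below 0.05 (edgeR) and 1, *Keap1*, called by DESeq2. *Keap1* had 67.7, 63.2 and 51.3 CPM in WT mice and 64.6, 84.6 and 91.3 CPM in mutant mice, with mutant mouse 1 within the WT mice and a log2 fold change of 0.42 (SE 0.13, edgeR adjusted p = 0.083), which was 0.22 after the correction (edgeR adjusted p = 0.293). *Nfe2l2* had -0.16, and its classical targets *Nqo1* and *Hmox1* had -0.26 and 0.41 (0.25 after the correction for *Hmox1*) at means of 3.44 to 6.18 CPM, with adjusted p between 0.276 and 0.585 (edgeR) for these 3 genes. DESeq2 gave no adjusted p for *Nqo1* and *Hmox1*, so it could not call them.

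In the list of NADPH supply, *Tkt* was the only one of 11 called. *G6pdx*, the entry enzyme of the pentose phosphate pathway, had 0.02, which turned to -0.07 with the correction, and *Nnt*, which makes NADPH in mitochondria, had 0.11. Among 22 peroxisomal genes *Pex16* was the only one called by edgeR, and DESeq2 also called *Abcd2*, a transporter of fatty acids into peroxisomes. The median was 0.10 with 14 above 0, and 0.04 after the correction. Of the 9 genes of selenium supply and selenoprotein synthesis *Selenop* was the only one called. Of 8 tested sources of superoxide and hydrogen peroxide none was called, with 3 at an unadjusted p below 0.05 (edgeR) and none by DESeq2. *Nox1*, an oxidase that makes superoxide, had the largest value of this list above 5 CPM, -0.44 (SE 0.18, edgeR adjusted p = 0.142).

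Red blood cells hold much catalase, *Prdx2* and *Gpx1*, so their markers are given. The 4 globin genes *Hba-a1*, *Hba-a2*, *Hbb-bs* and *Hbb-bt* were listed at 0 in every library, so nothing is read from them, and *Alas2* and *Slc4a1* together had 4.25 to 6.92 CPM in WT mice and 3.36 to 5.30 CPM in mutant mice. The 6 astrocyte markers had a summed level of 2124 to 2158 CPM in WT mice and 2087 to 2160 CPM in mutant mice, with none called. The 6 oligodendrocyte markers had 7954 to 8070 and 6641 to 7568 CPM, with none called. Markers of choroid plexus, which can be carried over at dissection, ranged from 101 to 2193 CPM in WT mice and from 107 to 2279 CPM in mutant mice, and those of meninges from 92.7 to 152 and from 94.8 to 177 CPM. Of the 7 choroid plexus markers none was called, with none at an unadjusted p below 0.05 (edgeR), and of the 8 markers of meninges and fibroblasts 1, *Col1a1*, was called higher, with 7 above 0. No marker of these last 4 lists was at 0, and the part of any of these cells in the levels of the 10 genes was not tested.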

How the data were processed

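The submitters' processing notes name mm10, STAR 2.7.4a and HTSeq. The authors deposited raw counts per gene symbol and library, without normalization or pooling. The annotation and strand setting are not given in the sources used here. CPM are counts divided by the total on genes. In R 4.3.3, genes were filtered by filterByExpr, scaled by TMM and tested by the quasi-likelihood F test of edgeR 4.0.16, two-sided, with genotype as the only factor and Benjamini-Hochberg adjustment over 14445 genes. Calls needed an adjusted p under 0.05 and a change of over 1.2-fold. The SE given with an edgeR log2 fold change was derived from the test. It is the size of the log2 fold change divided by the square root of its F statistic. DESeq2 1.42.0 was an alternative. It gave no adjusted p for some genes, *Prdx4*, *Nqo1* and *Hmox1* among them, and such genes could not be called by it. For the correction, natural splines of 5 degrees of freedom, 1 for the GC content and 1 for the length of each gene's longest transcript in GENCODE M21 (GRCm38, as mm10) were fitted to each library's deviation from the mean, for 14201 genes (98.3%). A repeat with the longest protein-coding transcript was chosen after seeing the data.

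On simulated counts for 14309 genes, edgeR recovered 78% of genes changed 1.5-fold and 93% of genes changed 2-fold, with 14 false calls. The changed genes were taken above a mean of 5 CPM, and the simulated libraries had no trend with GC content or length. The real libraries had such a trend, so these figures do not carry over to them. The 10 genes and all lists were chosen with earlier results of these data known. Named were the 10 genes, *Ube3a*, 20 functional partners, every called gene of the lists, the gene of each list with the largest log2 fold change above 5 CPM, and the 5 genes nearest to *Sod1*. *Trmt112*, *Junb*, *Rnaseh2a*, *Large2*, *Ccdc152* and *Snhg14* are named for overlap. *Abcd2*, *Col1a1* and the red blood cell markers were named after their values were seen.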

Additional observations from a re-analysis of the deposited data

How the results depend on the processing

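The 290 genes called became 951 with DESeq2, 1176 with no filter, 2832 at an unadjusted p below 0.05 with a change of over 1.2-fold, 92 after the GC and length correction, 90 with its protein-coding form, 13 with correction and replicate block, and 0 to 2582 with a mouse left out. The 2582 came without WT mouse 1, 1816 without mutant mouse 1, and 0 to 2 without any of the others. The 4 called genes of the antioxidant lists became 7, 9, 19, 2, 2, 0 and 0 to 16 in the same settings. With the replicate block alone both counts were 0 (edgeR, with 2422 genes and 19 list genes at an unadjusted p below 0.05). Deviations of same-numbered mice correlated at -0.28, -0.18 and -0.31, so the numbers were not taken to pair the mice. This check sees only a shift shared by same-numbered mice, so it cannot tell whether the numbers mark a batch. *Ube3a* stayed lower in every setting. It was not called with the block (-0.57), the correction (-0.20, and -0.19 with the block) or the protein-coding transcript (-0.16), and ran from -0.73 to -0.48 with a mouse left out (called without WT mouse 1 or mutant mouse 1 only). The number of the 10 genes above 0 was 5 to 7. In the correction, the correction with block and the protein-coding transcript, *Txn2* had -0.0837, -0.0824 and -0.0623, *Srxn1* -0.0776, -0.0769 and -0.0606, *Gclm* 0.0786, 0.0765 and 0.0921, *Slc7a11* 0.27, 0.26 and 0.28, and *G6pdx* -0.0686, -0.0657 and -0.0484. *Gss* had -0.0026 with library size only and -0.15 with the protein-coding transcript. With a mouse left out, *Srxn1* ran from -0.0207 to 0.0648, *Gss* from -0.0701 to 0.13, *Slc7a11* from -0.0968 to 0.0282 and *G6pdx* from -0.0564 to 0.12. The cause of these changes was not tested.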
